A study of Mus musculus with 20 samples.

Results

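The 3′ UTR of 2900026A02Rik, a mouse gene that the RefSeq table lists as protein-coding with the synonym Kiaa1671, carries a dense group of listed A-to-I editing sites. All 68 sites that the deposited tables list under this gene were followed here, of 48425 sites listed in all. They span 609 bases at chr5:113516460-113517068 on mm9, on the minus strand, and all 68 are annotated as 3′ UTR. A site was kept if both libraries of at least 1 of the 10 groups had 50 or more reads over it. All 68 passed, as did 9065 sites of the whole series in 323 genes. None lay near the limit: the site with the poorest best group still had 294 reads or more in both libraries of that group. The gene was chosen by its editing levels in interferon-treated and untreated cells, because neighbouring sites moved in opposite directions. Differences between treated and untreated cells are therefore described below without a test.

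Adenosine-to-inosine editing acts on double-stranded RNA, often where inverted copies of a repeat fold back on each other in a 3′ UTR, and inosine is read as guanosine in cDNA. The enzymes are ADAR1 and ADAR2. ADAR1 is made as a constitutive p110 form, mostly nuclear, and as a p150 form that interferon induces and that reaches the cytoplasm. STAT2 is a transcription factor through which type I interferon switches on its target genes. The function of the 2900026A02Rik protein is not described here, and the bases around the sites were not used here because no mm9 genome was at hand.

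Editing was read in mouse embryonic fibroblasts, connective tissue cells grown from embryos. Per the labels the lines are ADAR1_NULL (lacking ADAR1), P150_KO (lacking the p150 form), ADAR2_NULL (lacking ADAR2), STAT2_NULL (lacking STAT2) and ADAR1_WT, called wild type here. Each of the 5 lines was sampled with interferon and untreated, with 2 libraries per group, so that 20 libraries form 10 groups. Of the 6 lines in the design text, 1 was not analysed here. The sources used here do not give the interferon's type, dose or duration, the knockout alleles or the mouse strain. Each genotype is 1 line, so an effect of genotype and other differences between lines cannot be told apart. Amplicon counts measure editing and not expression, so the loss of each targeted gene and the markers of the fibroblasts were not checked. No label states whether paired libraries are separate cultures, and a p-value below reflects the spread between libraries alone, which may be technical.

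Total coverage over all sites was 4389326 to 5559674 reads per library. Coverage of the 68 sites fell into 8 runs of neighbouring sites with nearly equal read numbers, numbered here from the 5′ end. Sites within a run are taken to share their reads and are not independent of each other. Run 1 holds 23 sites (113517004 to 113517068), run 2 holds 6 (113516979 to 113516999), run 6 holds 8 (113516831 to 113516847) and run 8 holds 3 (113516460 to 113516516). Read numbers in run 2 were 1.94 to 2.14 times those in run 1 in every library, and those in run 7 were 0.494 to 0.512 times those in run 6. Whether the mates of 1 fragment were counted separately there was not tested. Reads carry no molecular identifiers, so the intervals and limits below cover counting error only.

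A pair of libraries stood apart in depth. The first P150_KO library with interferon had only 9 to 18 reads over the 29 sites of runs 1 and 2, and those sites enter no test and no count of that group. The first untreated ADAR1_NULL library had 42 reads over the 11 sites of run 7, which leaves 57 covered sites, and a median of 69.5 reads over all 68. The other 18 libraries had at least 85 reads over every site.

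**Figure D1:**
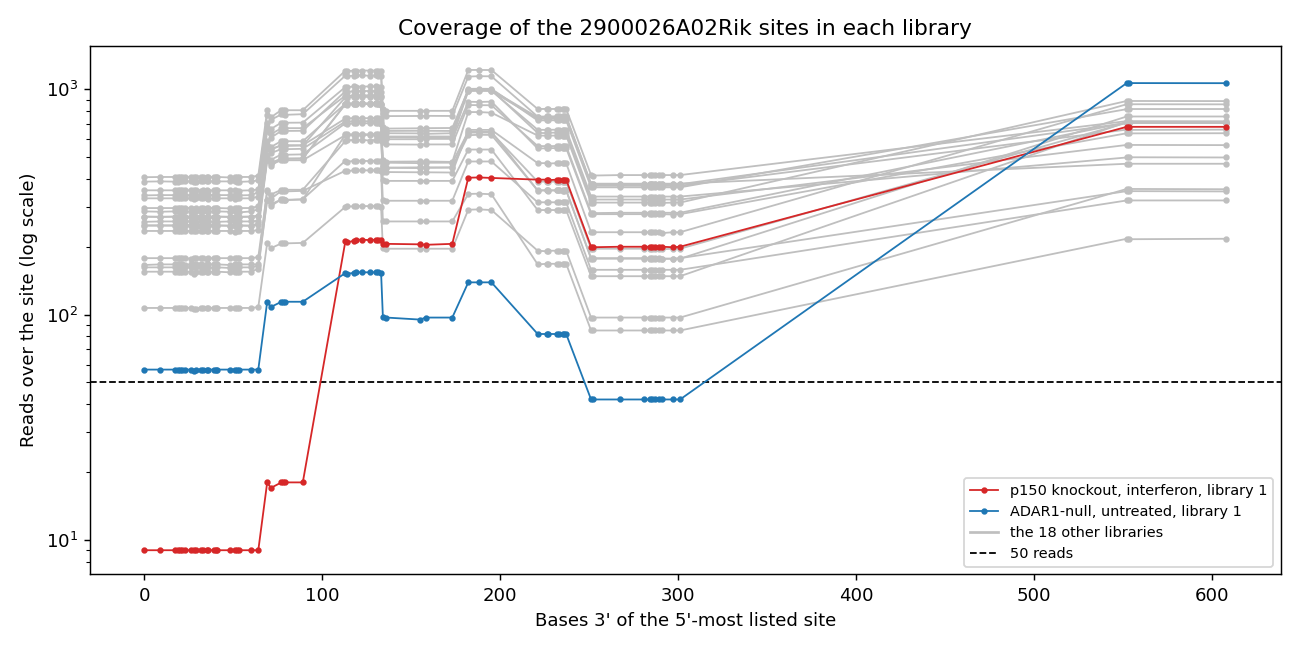
Reads over each of the 68 sites (log scale) against the distance in bases from the 5′-most listed site, 1 line per library. The first P150_KO library with interferon drops to 9 reads over the 5′-most run and the first untreated ADAR1_NULL library to 42 reads over run 7, while the 18 other libraries (grey) stay above the 50-read limit (dashed).

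Editing of this 3′ UTR was extensive in 2 groups, moderate in 1 and low in the other 7. In ADAR2_NULL cells with interferon 20 of the 68 sites (29.4%) averaged 5% or more, against 7.11% of the other covered sites of the series. Wild-type cells with interferon had 21 such sites (30.9%), against 708 of the 7069 other covered sites, and untreated wild-type cells had 10 (14.7%), against 2.70%. No covered site of the gene averaged 5% in ADAR1_NULL, P150_KO or STAT2_NULL cells under either condition, or in untreated ADAR2_NULL cells. Of the other covered sites of the series, 0.118% did so in ADAR1_NULL cells with interferon and 0.167% untreated. In P150_KO cells 0.563% did so with interferon and 0.544% untreated, and in untreated ADAR2_NULL cells 0.812%. In the STAT2_NULL line 2.15% of the other covered sites averaged 5% or more with interferon and 1.90% untreated. With shares this low, the lack of such sites in this gene is no result about it. These shares are descriptions and were not tested.

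A total of 24 sites never averaged 1% in any group. The edited sites lay in 3 stretches. In wild-type cells with interferon all 8 sites of run 6 averaged at least 5%, as did 4 of the 6 sites of run 2, 5 of the 23 of run 1 and 2 of the 3 of run 8. Runs 4 and 5 held none, and runs 3 and 7 held 1 each. ADAR2_NULL cells with interferon shared 18 of these sites, and the mean levels of the 68 sites in the 2 groups had a Pearson correlation of 0.931. Between interferon-treated and untreated wild-type cells the same correlation was 0.531. Both are descriptions over sites that share reads.

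**Figure D2:**
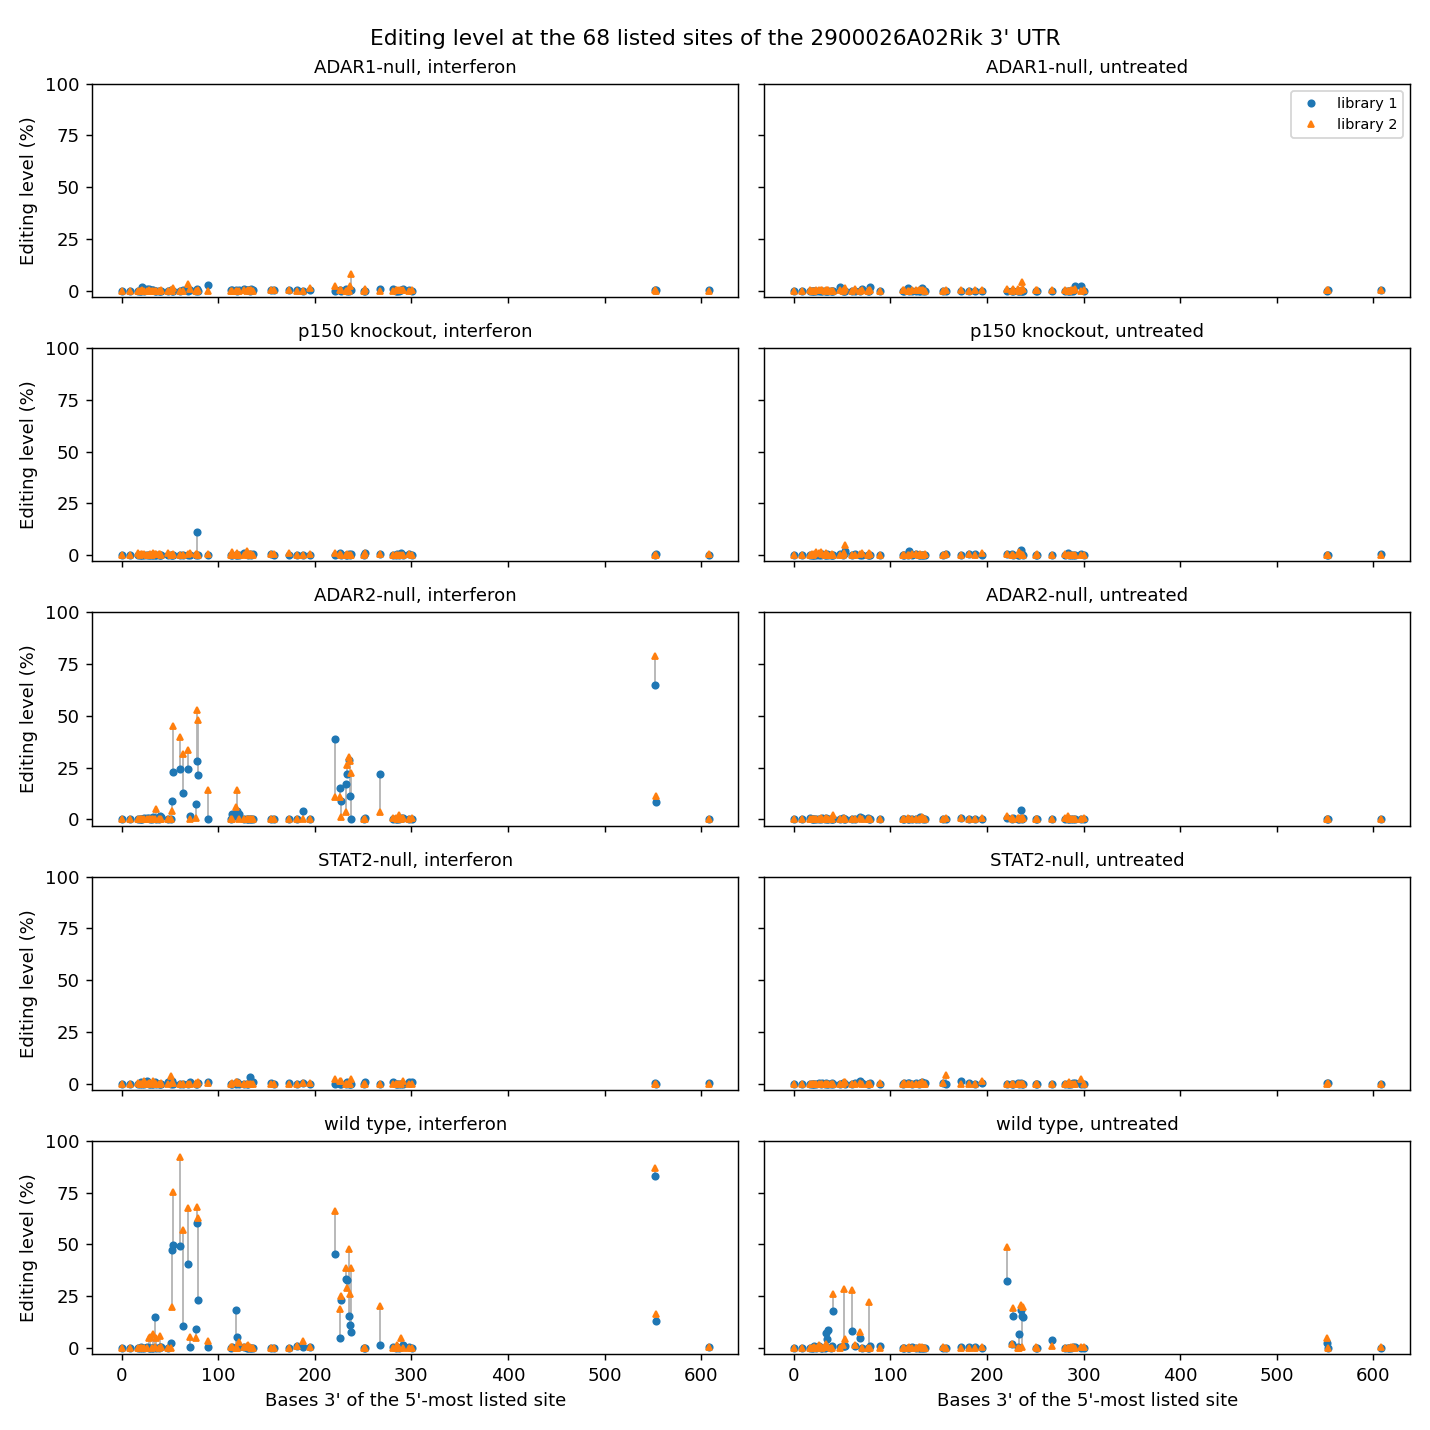
Editing level in percent at each of the 68 sites against the distance in bases from the 5′-most listed site, with interferon on the left and untreated on the right and both libraries drawn as separate points. Peaks reach 92.2% in wild-type and 79.0% in ADAR2_NULL cells with interferon, and 48.7% in untreated wild-type cells, while the STAT2_NULL panels stay under 5%.

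The highest group mean of the gene was at 113516516, in the 3′-most run, in wild-type cells with interferon. With interferon its level was 0.421% and 0.177% in ADAR1_NULL, 0.147% and 0.157% in P150_KO, 64.9% and 79.0% in ADAR2_NULL, 0.312% and 0% in STAT2_NULL, and 82.9% and 86.8% in wild-type cells. Untreated, it was 0.0939% and 0.214% in ADAR1_NULL, 0% and 0.282% in P150_KO, 0.201% and 0.141% in ADAR2_NULL, 0.567% and 0% in STAT2_NULL, and 2.27% and 5.02% in wild-type cells. All treated wild-type and ADAR2_NULL libraries lay above every other library. These values rest on 217 to 1065 reads per library. The adenosine 1 base away, 113516515, was edited far less on the same reads: 8.45% and 11.5% in ADAR2_NULL and 12.9% and 16.4% in wild-type cells with interferon, and under 1% in every other library.

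Wild-type cells with interferon had 18 sites higher and 4 lower than untreated wild-type cells, counting sites whose libraries did not overlap, where 21.5% and 7.70% of all sites compared in that line did so. With a difference of at least 1 point, a limit set after seeing the data, 14 sites remained higher and 1 lower, against 12.8% and 1.01% of all sites. After 113516516, which differed by 81.2 points, the widest rises were at 113517015, 113516990, 113517008, 113516999 and 113516989. Site 113517015 had 49.7% and 75.4% with interferon, against 0.806% and 4.23% untreated. Site 113516990 had 60.5% and 68.2% with interferon, against 0% and 22.0% untreated. The treated libraries of both sites lay clear of the untreated ones.

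Site 113517008 reached 49.0% and 92.2% with interferon, against 8.06% and 27.9% untreated, and 113516999 reached 40.4% and 67.6% with interferon, against 4.67% and 7.66% untreated. Site 113516989 had 23.0% and 62.6% with interferon, against 1.22% and 0% untreated. At these 3 sites the treated libraries differed from each other by more than read counting allows, with separate 95% Clopper-Pearson intervals, and still did not overlap the untreated ones. Adjacent bases differed in level: the means with interferon were 42.8 ± 28.0% at 113516989 and 64.3 ± 5.42% at 113516990 (SD, n = 2), while 113516991 had 9.26% and 4.75%.

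Site 113517027 ran the other way. Its level was 0.645% and 0.599% in wild-type cells with interferon, on 155 and 167 reads, against 17.7% and 26.1% in untreated wild-type cells, on 248 and 287 reads. The group means were 0.622 ± 0.0328% with interferon and 21.9 ± 5.93% untreated (SD, n = 2), a difference of -21.3 points with a standard error of 4.20. It was 1 of the 10 sites at 5% or more in untreated wild-type cells, and the other 9 also averaged at least 5% with interferon. The adjacent base, 113517028, covered by nearly the same number of reads, had 0.645% and 6.02% with interferon, against 0.810% and 0% untreated, and its groups overlapped. The rising sites 113517015 and 113517008 lie 12 and 19 bases away in the same run, with nearly equal read numbers in every library.

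Outside untreated wild-type cells 113517027 stayed near 0. With interferon it had 0% and 0.281% in ADAR1_NULL, 1.10% and 0% in ADAR2_NULL, and 0% and 0.562% in STAT2_NULL cells. Untreated, no edited read was seen in ADAR1_NULL (0 of 447 reads, which allows up to 0.671%), P150_KO (0 of 657, up to 0.457%) or STAT2_NULL cells (0 of 379, up to 0.792%), and ADAR2_NULL cells had 0% and 1.94%. High levels were thus confined to 2 of the 20 libraries. P150_KO cells with interferon had no edited read at this site on 9 and 339 reads, and the first of these libraries is too shallow there to count as covered.

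The other 3 sites that were lower with interferon in wild-type cells, 113516932, 113517042 and 113517047, differed by less than 1 point and stayed under 1.5% in all 4 libraries. Their nearest listed neighbours were 1 or 2 bases away. Of these neighbours 113517048 and 113516934 stayed under 1% in all 4 wild-type libraries. Site 113517040 had 0% and 4.79% with interferon, against 0% and 0.348% untreated. None of these neighbours separated the treated from the untreated libraries.

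Run 6 held 5 of the 10 sites at 5% or more in untreated wild-type cells, among them the highest, 113516847. Site 113516847 had 45.6% and 66.4% in wild-type cells with interferon, against 32.5% and 48.7% untreated, and the groups overlapped. Site 113516831 had 7.87% and 38.5% with interferon, against 14.9% and 19.6% untreated, and 113516833 had 15.6% and 47.9% with interferon, against 18.5% and 20.7% untreated, and both overlapped. Without the second treated library both of their differences turned negative, to -9.39 and -4.01 points. Within the same 17 bases 113516836 had 33.4% and 38.5% with interferon, against 0.270% and 0% untreated, and 113516835 had 33.1% and 28.9% with interferon, against 6.62% and 0% untreated. Sites on shared reads thus ranged from no separation to a rise of 35.8 points.

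**Figure D3:**
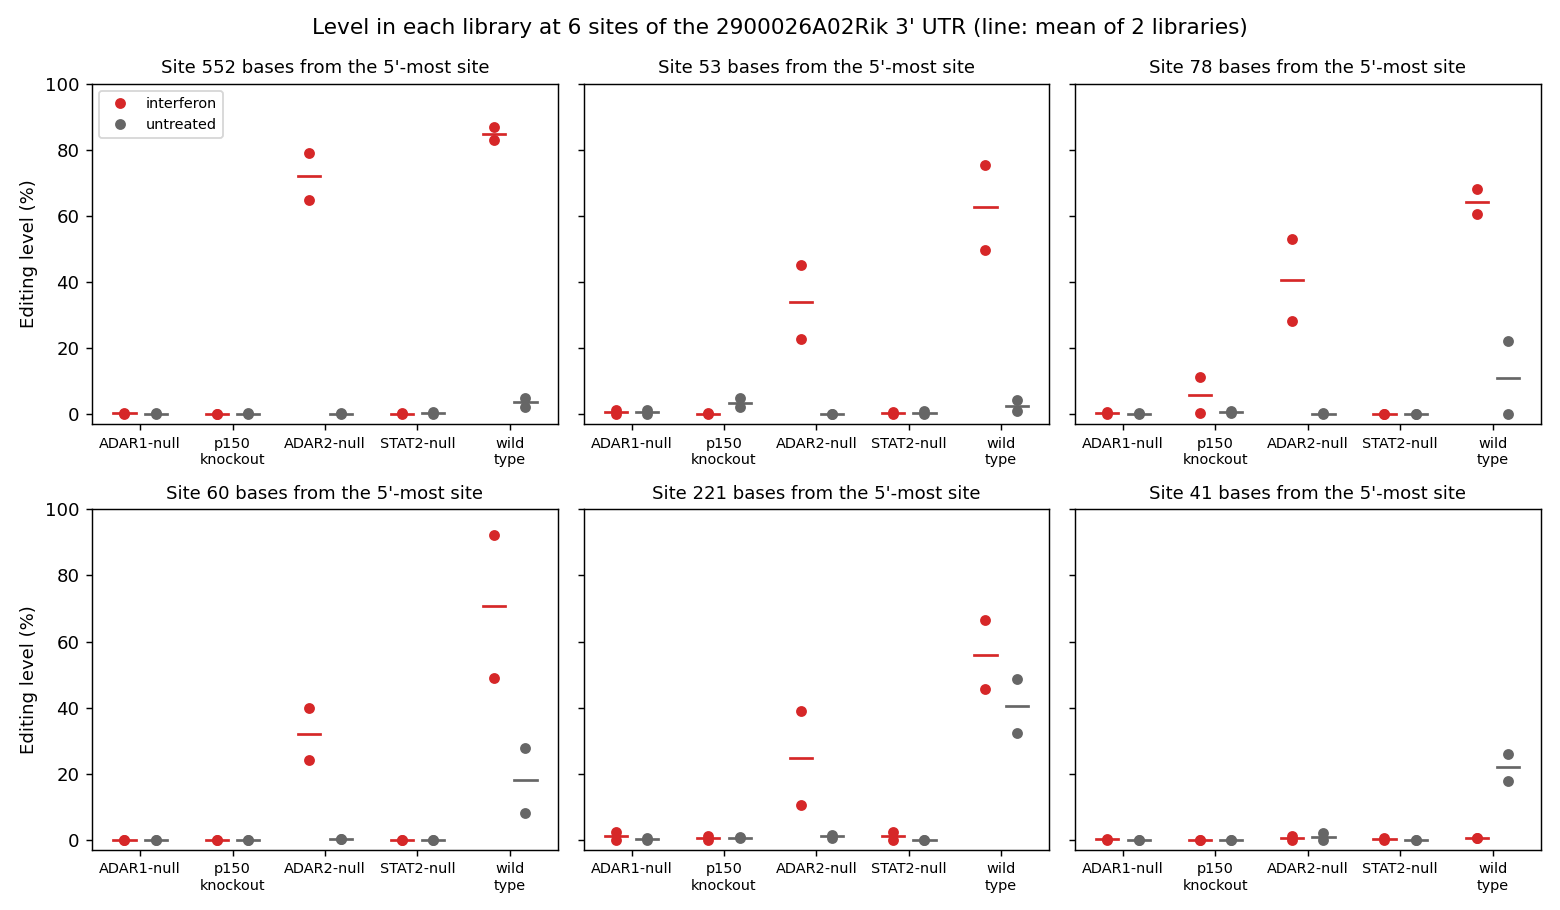
Editing level in percent in each of the 20 libraries at 6 sites, named by their distance from the 5′-most site (552 is 113516516, 53 is 113517015, 78 is 113516990, 60 is 113517008, 221 is 113516847 and 41 is 113517027), with interferon in red left of untreated in grey and a bar at each mean. At 552 bases the treated ADAR2_NULL and wild-type libraries lie at 64.9% or more, and at 41 bases the untreated wild-type libraries, at 17.7% and 26.1%, stand alone. The first P150_KO library with interferon rests on 9 or 18 reads at 41, 53, 60 and 78 bases.

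Libraries of the same group often disagreed at these sites. In wild-type cells with interferon 21 of the 68 sites had separate 95% Clopper-Pearson intervals in the 2 libraries, and in ADAR2_NULL cells with interferon 22 did. The number was 8 in untreated wild-type cells, 5 in ADAR1_NULL cells with interferon and at most 3 in the other groups. Untreated wild-type libraries had 1.21% and 28.7% at 113517016 and 15.5% and 0.275% at 113516832. Treated wild-type libraries had 18.3% and 0% at 113516950 and 1.59% and 20.3% at 113516801. Neither library was the higher one throughout. The interval of a single library is therefore much narrower than the spread between libraries. Over 617 to 1634 sites of the series per group, a part of the covered sites, that spread was 3.20 to 20.2 times the counting variance (chi-square per degree of freedom).

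In ADAR2_NULL cells interferon was accompanied by 23 higher and 5 lower sites of 68, where 19.4% and 10.2% of all sites compared were so. With at least 1 point, 21 sites were higher and none was lower, against 12.1% and 0.858% of all sites. The 5 lower sites differed by less than 1 point. Site 113516990 had 28.1% and 52.9% with interferon, against 0.307% and 0% untreated, and 113516833 had 28.7% and 30.2% with interferon, against 4.54% and 0% untreated. Untreated ADAR2_NULL cells had no site whose mean exceeded 2.27%, the value at 113516833.

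In the lines lacking STAT2, p150 or ADAR1 no compared site separated the treatments by 10 points. The share of all sites at that limit was not counted. Few of all sites reached even 1 point in these lines, so this lack is no result about the gene. STAT2_NULL cells had 5 higher and 2 lower sites with interferon, against 9.61% and 11% of all sites, and none differed by 1 point, where 2.22% and 1.33% of all sites did. P150_KO cells had 6 higher and 4 lower of 39, against 14.3% and 10.1%, with 1 site in each direction at 1 point or more, against 1.62% and 1.47% of all sites. ADAR1_NULL cells had 8 higher and 2 lower of 57, against 15.6% and 7.37%, and with at least 1 point none was higher and 2 were lower, against 0.403% and 1.06%. Leaving out a library can only add sites without overlap among those compared, so growth of these counts is no result about the sites. Counts of this kind in wild-type, STAT2_NULL, P150_KO and ADAR1_NULL cells grow by over 1.5 times when any 1 library of the line is left out. In wild-type cells they came to 35 to 39 in all. Leaving out a shallow library also changes how many sites are compared: without the first P150_KO library with interferon 31 of 68 sites did not overlap, and without the first untreated ADAR1_NULL library 28 of 68.

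Only 28 sites of the gene were covered in every library, and the shallow libraries leave none in runs 1, 2 and 7. The means that follow therefore leave out the falling site 113517027. They also leave out the rising sites 113517015, 113516990, 113517008, 113516999 and 113516989. Averaged over the 12 sites that were covered in every library and had a mean of at least 1%, levels with interferon were 0.685 ± 0.634% in ADAR1_NULL, 0.265 ± 0.0679% in P150_KO, 19.3 ± 1.35% in ADAR2_NULL, 0.430 ± 0.424% in STAT2_NULL and 28.6 ± 5.87% in wild-type cells (SD, n = 2 each). Untreated, they were 0.411 ± 0.382% in ADAR1_NULL, 0.424 ± 0.125% in P150_KO, 0.545 ± 0.109% in ADAR2_NULL, 0.128 ± 0.116% in STAT2_NULL and 9.34 ± 0.484% in wild-type cells. Over the 592 sites of other genes that met the same filter, STAT2_NULL cells averaged 3.81 ± 0.256% with interferon and 3.55 ± 0.197% untreated, and wild-type cells 17.8 ± 1.05% with interferon and 4.43 ± 0.168% untreated. With 2 libraries a group, an exact permutation test of 1 such difference could not reach 0.05, and none was run.

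Each knockout line was tested against wild type under the same condition, with edgeR's quasi-likelihood test on edited and unedited reads. A site was tested if all 4 libraries had 50 reads and its mean level was at least 1%. Within each comparison, p-values were adjusted by the Benjamini-Hochberg method over all sites of the series that were tested there. These contrasts were not the ground on which the gene was chosen, but they use the wild-type libraries that were in view then, so they do not stand apart from that choice. In 7 of the 8 comparisons 36 to 50 of the 68 sites averaged under 1% and were not tested, and in P150_KO cells with interferon 24 averaged under 1% and 29 were not covered. Except in ADAR2_NULL cells with interferon, the tested sites of the gene reached 1% mainly through wild-type cells, so a lower level in the knockout was largely set by that minimum, and the counts of lower sites are descriptions. The wild-type levels of the rising sites also entered the choice of the gene. Differences at single sites are therefore given without a p-value, apart from those in ADAR2_NULL cells with interferon. No site of the gene was called higher than wild type in any of the 8 comparisons. Over all sites tested, higher calls made up 0% in ADAR1_NULL, 0.577% in P150_KO, 0.445% in ADAR2_NULL and 1.15% in STAT2_NULL cells with interferon, and untreated 0.259% in ADAR1_NULL, 0.58% in P150_KO, 0.68% in ADAR2_NULL and 1.24% in STAT2_NULL cells.

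With interferon, 20 of the 31 sites tested were lower in ADAR1_NULL than in wild-type cells, against 69.5% of all sites tested. Site 113516516, with 0.421% and 0.177% in ADAR1_NULL and 82.9% and 86.8% in wild-type cells, gave a difference of -84.5 ± 1.99 points (SE). Site 113517008 had no edited read in ADAR1_NULL cells (0 of 653 reads, which allows up to 0.459%), against 49.0% and 92.2% in wild-type cells (difference -70.6 ± 21.6 points). The highest level in any ADAR1_NULL library was 8.27%, at 113516831 in the second library with interferon, against 0.536% in the first.

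In P150_KO cells with interferon 10 of the 15 sites tested were lower than in wild-type cells, against 63.9% of all sites tested. All 8 sites of run 6 and both edited sites of run 8 made up the 10. Site 113516836 had no edited read in P150_KO cells (0 of 945 reads, up to 0.317%), against 33.4% and 38.5% in wild-type cells (difference -35.9 ± 2.56 points). The shallow first P150_KO library gave the highest level in the line, 11.1% at 113516990, which is 2 edited reads of 18.

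STAT2_NULL cells with interferon were lower than wild-type cells at 18 of 32 sites, against 39.8% of all sites tested. Site 113516999 had no edited read in STAT2_NULL cells (0 of 677 reads, up to 0.443%), against 40.4% and 67.6% in wild-type cells (difference -54.0 ± 13.6 points). The highest level in any treated STAT2_NULL library was 3.93%, at 113517017.

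ADAR2_NULL cells with interferon had no called site among 32 tested, against 1.56% of all sites called lower. Limma also called none, and 2 sites had an unadjusted p under 0.05 in edgeR. At 26 of the 32 sites the ADAR2_NULL mean lay below that of wild-type cells. The widest difference was at 113517008, with 24.3% and 40.0% in ADAR2_NULL and 49.0% and 92.2% in wild-type cells (-38.5 ± 23.0 points; edgeR adjusted p = 0.389). The lowest adjusted p was 0.277. Without the first wild-type library the calls changed, over all sites of the series as in this gene, so that change is no result about the gene. The missing calls do not show that the lines were alike.

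Untreated, 8 of 16 sites were lower in ADAR1_NULL than in wild-type cells, against 49% of all sites tested, and 8 of 18 were lower in P150_KO cells, against 32.5%. Site 113516847 had 0% and 0.661% in ADAR1_NULL, 0.734% and 0.667% in P150_KO, and 32.5% and 48.7% in wild-type cells. Its differences were -40.3 ± 8.12 points in ADAR1_NULL and -39.9 ± 8.11 points in P150_KO cells. Site 113517027 is among the sites called in both lines, but its untreated wild-type level entered the choice of the gene, so its differences of -21.9 ± 4.20 points in both lines are given with no test, here and in the comparisons that follow. The ADAR1_NULL count fell without its second library, and the P150_KO count fell without either of its libraries. Calls over the whole series fell in those settings too.

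Untreated ADAR2_NULL cells were lower than untreated wild-type cells at 5 of 18 sites, against 12.9% of all sites tested: 113516516, 113516841, 113516847, 113517008 and 113517027. Site 113516847 had 0.605% and 1.54% in ADAR2_NULL cells, against 32.5% and 48.7% in wild-type cells (difference -39.5 ± 8.12 points). Site 113516841 had 0.605% and 0.257% in ADAR2_NULL cells, against 15.6% and 19.4% in wild-type cells (difference -17.0 ± 1.91 points). Most or all of these calls were lost without the second untreated wild-type library or without either ADAR2_NULL library. Calls over the whole series fell in those settings too.

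Untreated STAT2_NULL cells were lower than untreated wild-type cells at 3 of 18 sites, against 1.71% of all sites tested. Over the whole series 11 of 643 sites were called lower in this comparison. The 3 sites of the gene are 113516841, 113516847 and 113517027, and the untreated wild-type level of the last entered the choice of the gene. All 3 had no edited read in untreated STAT2_NULL cells and reached the 1% minimum through wild-type cells alone, so their count is a description. Site 113516847 had no edited read in STAT2_NULL cells (0 of 548 reads, up to 0.547%), against 32.5% and 48.7% in wild-type cells (difference -40.6 ± 8.11 points). Site 113517027 differed by -21.9 ± 4.20 points. These calls were lost without the second untreated wild-type library or without either STAT2_NULL library, although the levels of the libraries did not overlap at these 3 sites. Calls over the whole series fell in those settings too.

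**Figure D4:**
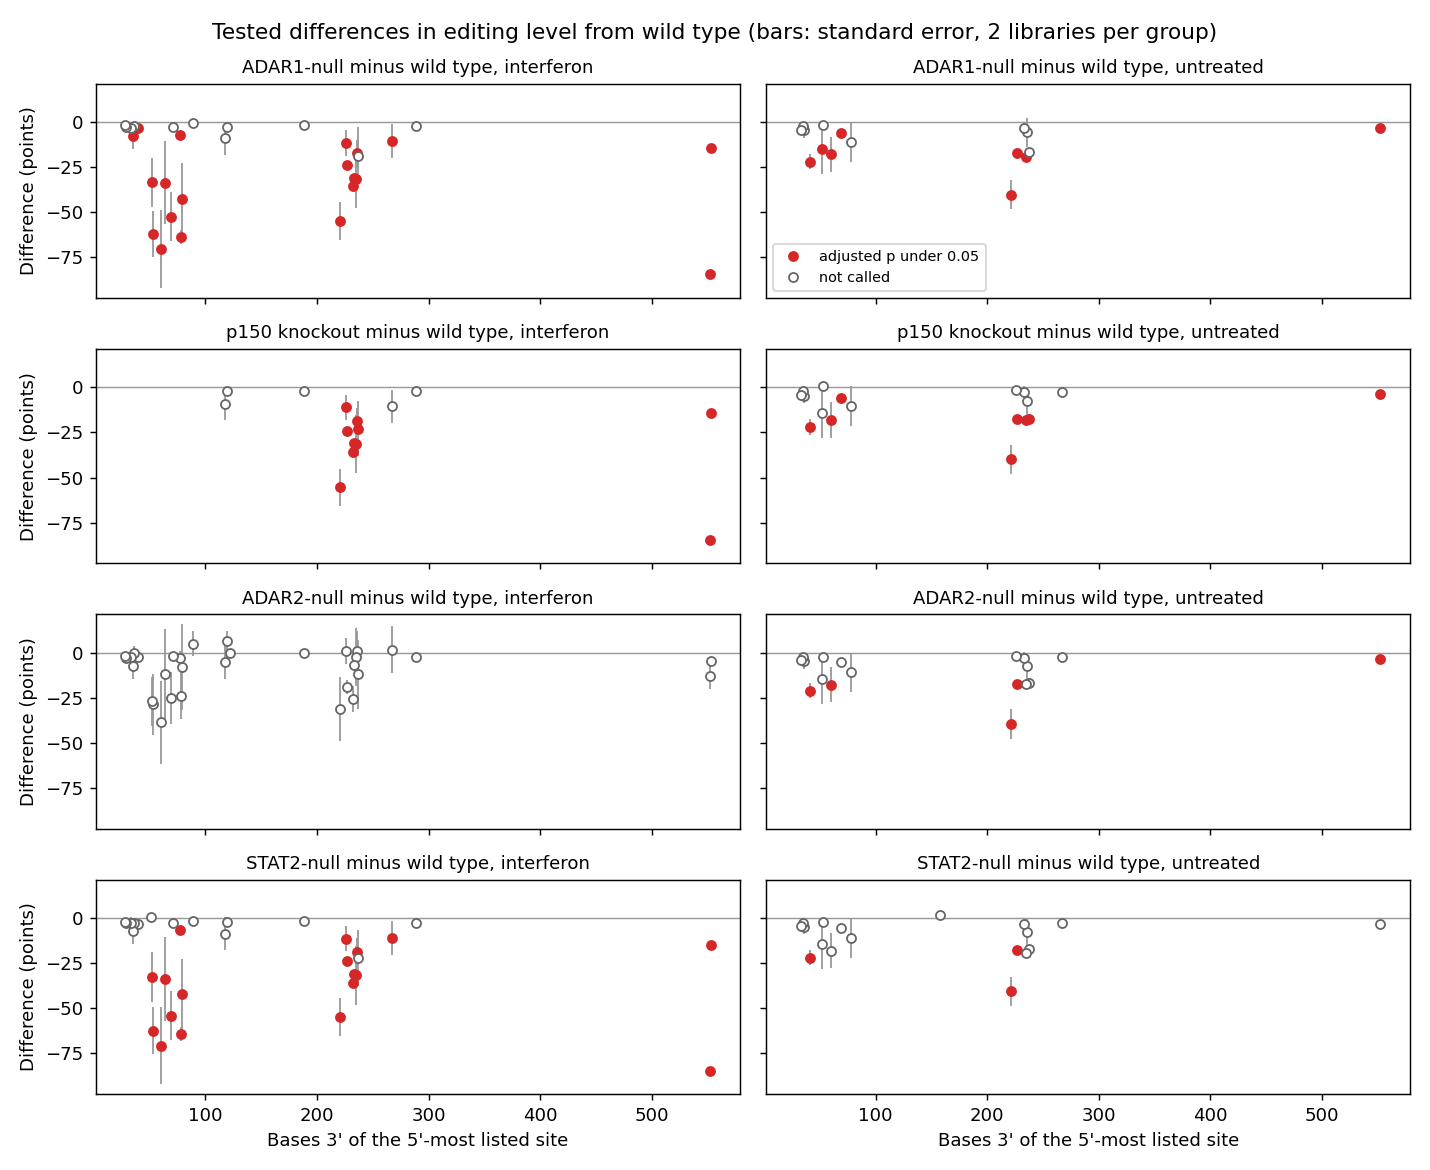
Difference in editing level from wild type in percentage points (bars: standard error, 2 libraries per group) at each tested site, by distance in bases from the 5′-most listed site, for 4 lines with interferon on the left and untreated on the right. Filled points have an edgeR adjusted p under 0.05. With interferon they number 20 in ADAR1_NULL, 10 in P150_KO, 0 in ADAR2_NULL and 18 in STAT2_NULL cells. Untreated, they number 8 in ADAR1_NULL, 8 in P150_KO, 5 in ADAR2_NULL and 3 in STAT2_NULL cells. Except in ADAR2_NULL cells with interferon, tested sites reached the minimum level mainly through wild-type cells, so the filled points and their counts are descriptions. The wild-type levels of 113517027 (at 41 bases) and of the rising sites entered the choice of the gene, so their filled points are not to be read as tests.

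Sites of other genes were counted in the same tests. A list of 10 genes with edited 3′ UTRs (Mad2l1, Rpa1, Mmgt1, Rhoa, Cds2, Nt5dc3, Mlh3, Mdc1, Gla and Iqgap1) had 144 of 157 sites lower with interferon in ADAR1_NULL cells, 136 of 159 in P150_KO, 6 of 172 in ADAR2_NULL, and 97 of 158 lower with 2 higher in STAT2_NULL cells. Untreated, it had 47 of 74 lower in ADAR1_NULL, 45 of 71 in P150_KO, 18 of 74 in ADAR2_NULL, and 2 lower and 2 higher of 87 in STAT2_NULL cells. The lists were chosen with earlier results of these data known, and their counts are descriptions.

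Blcap, whose transcript is recoded by editing, had 3 sites lower of 3 in ADAR1_NULL and in P150_KO cells with interferon, and 3 of 3 in untreated ADAR1_NULL cells. It had none called in the other 5 comparisons.

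The gene's mean level over the 10 groups was set beside that of 60 genes, each averaged over its sites that were covered in every library and had a mean of at least 1%. For 2900026A02Rik these were 12 sites, none of them in runs 1, 2 or 7. The 5 most alike by Pearson correlation were Tbc1d24 (0.988 over 10 groups), Nras (0.985), Cds2 (0.984), Rpa1 (0.984) and Nup155 (0.977). In all 5, wild-type cells with interferon were highest and ADAR2_NULL cells with interferon next. Nras averaged 18.6% in ADAR2_NULL and 30.7% in wild-type cells with interferon, and 5.69% in untreated wild-type cells. The correlations rest on a few high groups and share all libraries.

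The level of the falling site 113517027 was set beside that of 592 sites of other genes that were covered in every library and had a mean of at least 1%. Its own P150_KO mean with interferon rests on 9 and 339 reads, so 1 of the 10 groups is not covered at this site. The most alike were in Ncl at chr1:88245302 (r = 0.979 over 10 groups), Fbxl17 at chr17:63403538 (0.949), Dclre1c at chr2:3377650 (0.913), Flna at chrX:71472201 (0.894) and Nsun5 at chr5:135849673 (0.892), all on mm9. The Ncl site had means of 1.74% in wild-type cells with interferon and 8.31% in untreated wild-type cells, and the Fbxl17 site had 3.90% with interferon and 14.0% untreated. Site 113517027 was high in untreated wild-type cells alone, so these correlations rest mainly on that 1 group.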

How the data were processed

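Editing was measured by multiplex amplicon sequencing of cDNA from 557 loci, with 15 cycles of indexing PCR, per the labels' protocols. The submitters' processing notes name BWA, SAMtools and mm9, with versions and filters not stated. Each library's deposited table gives the coverage and the edited reads of each site as counts and the authors' editing level as a fraction, per the file headers. The deposited fraction matched edited reads divided by coverage within 0.00051 at all 195328 covered values. Whether positions count from 0 or 1 is not stated.

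Levels were recomputed from the counts. Groups were compared with edgeR 4.0.16 (R 4.3.3; modelMatrixMeth, glmQLFit, glmQLFTest, two-sided, all 20 libraries in 1 fit), with limma 3.58.1 on log ratios (offset 0.5) as an alternative. In simulated counts for untreated ADAR2_NULL against wild type, with 588 sites and 200 changed 8-fold in odds, 54.5% of the changed sites were called and 2 unchanged ones. The simulated spread between libraries was 1 fixed setting, not fitted to these data, so these rates need not hold for them. Intervals are 95% Clopper-Pearson (scipy 1.17.1), and a level of 0 has the limit set by 3 edited reads over the reads of both libraries. A run of sites ended where the coverage of neighbouring sites differed by over 10%. Named sites were the 6 widest called differences per comparison and the 6 widest non-overlapping rises and falls with interferon in wild-type cells, the 4 most edited per untreated line, and the neighbours of falling sites. Sites named for disagreement between libraries, for adjacency or as the highest of a line were chosen after their values were seen. The members, lists and tests were chosen with earlier results of these data known. Counts for 1 further gene list are not reported here. No label names a batch. The other settings were coverage of 20 or 100 reads, no minimum level, the 4 libraries alone, a replicate block and leaving out each library.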

Additional observations from a re-analysis of the deposited data

Results flagged for a closer look

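At 6 points the 2 libraries of 1 group all moved one way and those of the other group the opposite way, and these differences were not tested. At 113516989 interferon minus untreated was -1.002 points in ADAR1_NULL cells and 42.2 points in wild-type cells. At 113516999 it was -0.977 points in STAT2_NULL cells and 47.8 points in wild-type cells. At 113517042 it was 0.580 points in ADAR2_NULL cells and -0.780 points in wild-type cells. At 113517047 it was 0.982 points in ADAR1_NULL cells and -0.780 points in wild-type cells. The difference ADAR1_NULL minus wild type at 113517047 was likewise 0.982 points with interferon and -0.780 points untreated. At 113516935 the difference ADAR2_NULL minus wild type was -0.248 points with interferon and 0.583 points untreated. Apart from the 2 rises in wild-type cells, all these differences are about 1 point or less, which is a few edited reads per library.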

How the results depend on the processing

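Of 59 named calls 31 held under every alternative, the same number held whichever library was left out, and none reversed. They were 12 of 14 in ADAR1_NULL, 7 of 8 in P150_KO and 9 of 13 in STAT2_NULL cells with interferon, and untreated 1 of 8 in ADAR1_NULL, 2 of 8 in P150_KO and none of 5 in ADAR2_NULL or of 3 in STAT2_NULL cells. Leaving out 1 library gave, untreated, 2 to 9 called sites in ADAR1_NULL, 2 to 9 in P150_KO, 0 to 7 in ADAR2_NULL and 0 to 4 in STAT2_NULL cells, and with interferon 17 to 27 in ADAR1_NULL, 8 to 17 in P150_KO, 0 to 2 in ADAR2_NULL and 13 to 21 in STAT2_NULL cells. With interferon against untreated, the sites without overlap then numbered 18 to 28 in ADAR1_NULL, 18 to 31 in P150_KO, 36 to 42 in ADAR2_NULL, 13 to 25 in STAT2_NULL and 35 to 39 in wild-type cells. Leaving out a library can only add sites without overlap among those compared, so these larger numbers are no result about the sites. With 1 library left in a group, a test assumes that this library varies like the others. No share over all sites is given for the counts with 1 library left out.

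With 100 reads required, untreated ADAR1_NULL cells had 2 called sites of 3 tested, against 183 of 324 over all sites. In that line 3 sites of 21 were then without overlap between treatments. With only the 4 libraries compared, the untreated counts were 4 in P150_KO, 0 in ADAR2_NULL and 0 in STAT2_NULL cells. Over all sites they were 66 of 517, 0 of 588 and 0 of 643, in that order. Untreated STAT2_NULL cells had 6 called sites with no minimum level and 5 by limma, against 27 of 5964 and 22 of 643 over all sites. Requiring 1 point, added after seeing the data, left 2 sites without overlap in ADAR1_NULL, 2 in P150_KO and 0 in STAT2_NULL cells. The cause of these changes was not tested, beyond the fewer sites or libraries each setting keeps. Single differences with interferon changed sign, from over 5 points, in 4 cases when 1 library was left out: 113516831 and 113516833 in wild-type cells, 113516831 in ADAR2_NULL cells (-0.764 points) and 113516990 in P150_KO cells (-0.232 points), where the first library with interferon had 18 reads and the site does not count as covered.

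With replicate number as a block, the called sites untreated were 9 in ADAR1_NULL, 8 in P150_KO, 6 in ADAR2_NULL and 4 in STAT2_NULL cells. Over all sites tested they were 186 of 386, 165 of 517, 66 of 588 and 16 of 643, in that order. With interferon they were 20 in ADAR1_NULL, 10 in P150_KO, 0 in ADAR2_NULL and 19 in STAT2_NULL cells, against 807 of 1159, 676 of 1039, 23 of 1348 and 502 of 1217 over all sites. The deviations of same-numbered libraries of the groups compared correlated at 0.0291 to 0.0976 over 604 sites, so the numbers were not taken to pair the samples. Depth limits the sites of runs 1, 2 and 7 in the 2 shallow libraries.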

Other observations

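A few low levels stood above the near-zero values of their lines. Untreated P150_KO cells had 2.21% and 4.82% at 113517015, the highest mean of that line (3.51 ± 1.85%, SD, n = 2), against 0.806% and 4.23% in untreated wild-type cells. Untreated ADAR1_NULL cells had 0% and 4.22% at 113516832, with only 82 reads in the first library, against 15.5% and 0.275% in untreated wild-type cells. Untreated STAT2_NULL cells had 0% and 4.08% at 113516910, where untreated wild-type cells had no edited read in either library.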
